A study of Rattus norvegicus with 18 samples.

Results

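The aryl hydrocarbon receptor gene Ahr and 5 of its textbook target genes were followed across 9L, a rat gliosarcoma line used as a glioma model, grown as tumours in rats and as cells in culture. The set of 7 genes was Ahr, Ahrr, Cyp1a1, Cyp1b1, Tiparp, Aldh3a1 and Xdh, and members were the probe sets whose only annotated gene symbol was one of these. Of the 7, 6 had a probe set, exactly 1 each, among 27363 probe sets in all, and Tiparp was not analysed here. The set was put together because Cyp1a1 and Xdh were lower in hypoxic than in normoxic cultures, so every hypoxic minus normoxic culture value of a member is a description without a test.

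Hypoxic regions of 3 epigastric 9L tumours, grown from passaged tumour pieces in male Fischer rats (6 weeks old), were positive for EF5, a nitroimidazole that is retained in cells at low oxygen, and normoxic regions of the same 3 tumours were negative. Laser capture, which cuts marked tissue out of a section under the microscope, gave each region. Hypoxic cultures were 9L cells held at 0.2% oxygen, and normoxic cultures were 9L cells at about 20% oxygen, each for 16 h or 6 h and with 3 cultures per group. All samples came from the 9L line and the labels name no engineered allele, cultures grew in medium with 12% newborn calf serum, and 2 ng of RNA per sample was amplified for Affymetrix arrays. Whether same-group cultures were grown independently is unstated, so p-values over them reflect a spread that may be technical.

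The aryl hydrocarbon receptor is a cytoplasmic transcription factor that enters the nucleus when it binds a ligand such as a polycyclic hydrocarbon, a dioxin or a tryptophan metabolite. In the nucleus it pairs with ARNT, the same partner that the hypoxia-inducible factors HIF-1 alpha and HIF-2 alpha use, and the pair binds DNA elements with the core GCGTG. The battery of targets includes the cytochrome P450 genes Cyp1a1 and Cyp1b1 and the repressor gene Ahrr, which closes a negative feedback loop.

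The arrays limit the precision by their number, 3 per group. Array medians were 6.356 to 6.499 log2 units in tumour samples and 6.02 to 6.19 in cultures, and within-group correlations over all probe sets were 0.937 to 0.964 for tumours and 0.988 to 0.996 for cultures. The normoxic array of tumour 3 stood apart, since it correlated at 0.941 with the averaged normoxic cultures against 0.865 to 0.892 for the other 5 tumour arrays, so values without tumour 3 are given beside the tumour results of the 6 measured members and of several list genes. The oxygen labels were checked on 10 genes known to rise at low oxygen. In the tumours all 10 were higher in hypoxic regions and none passed the test (median log2 difference 1.83). In cultures all 10 were higher at each time, and 9 of 10 passed at 16 h and 9 of 10 at 6 h (median 1.62 at each time). Of the 8 measured glial and neural stem cell markers, Gfap lay at percentile 30.2 of probe sets in normoxic tumour regions and 28.4 in normoxic 6 h cultures. Vim, an intermediate filament gene of mesenchymal and glioma cells, lay at 99.5 and 99.7. S100b, Aqp4, Sox10, Sox2, Nes and Cd44 lay at 23.7, 45.6, 65.9, 73.3, 74.4 and 92.4 in normoxic tumour regions. In normoxic 6 h cultures those genes lay at 20.8, 39.3, 55.5, 62.2, 54.3 and 93.9. The 12 macrophage markers averaged 7.60 to 8.28 log2 units in hypoxic and 8.19 to 8.86 in normoxic tumour regions, against 5.41 to 5.59 over all cultures, and the 10 T and NK cell markers 6.11 to 6.41 and 6.66 to 7.99, against 5.04 to 5.40. In such mixed samples, fewer cells of a type and less RNA per cell cannot be told apart.

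**Figure D1:**
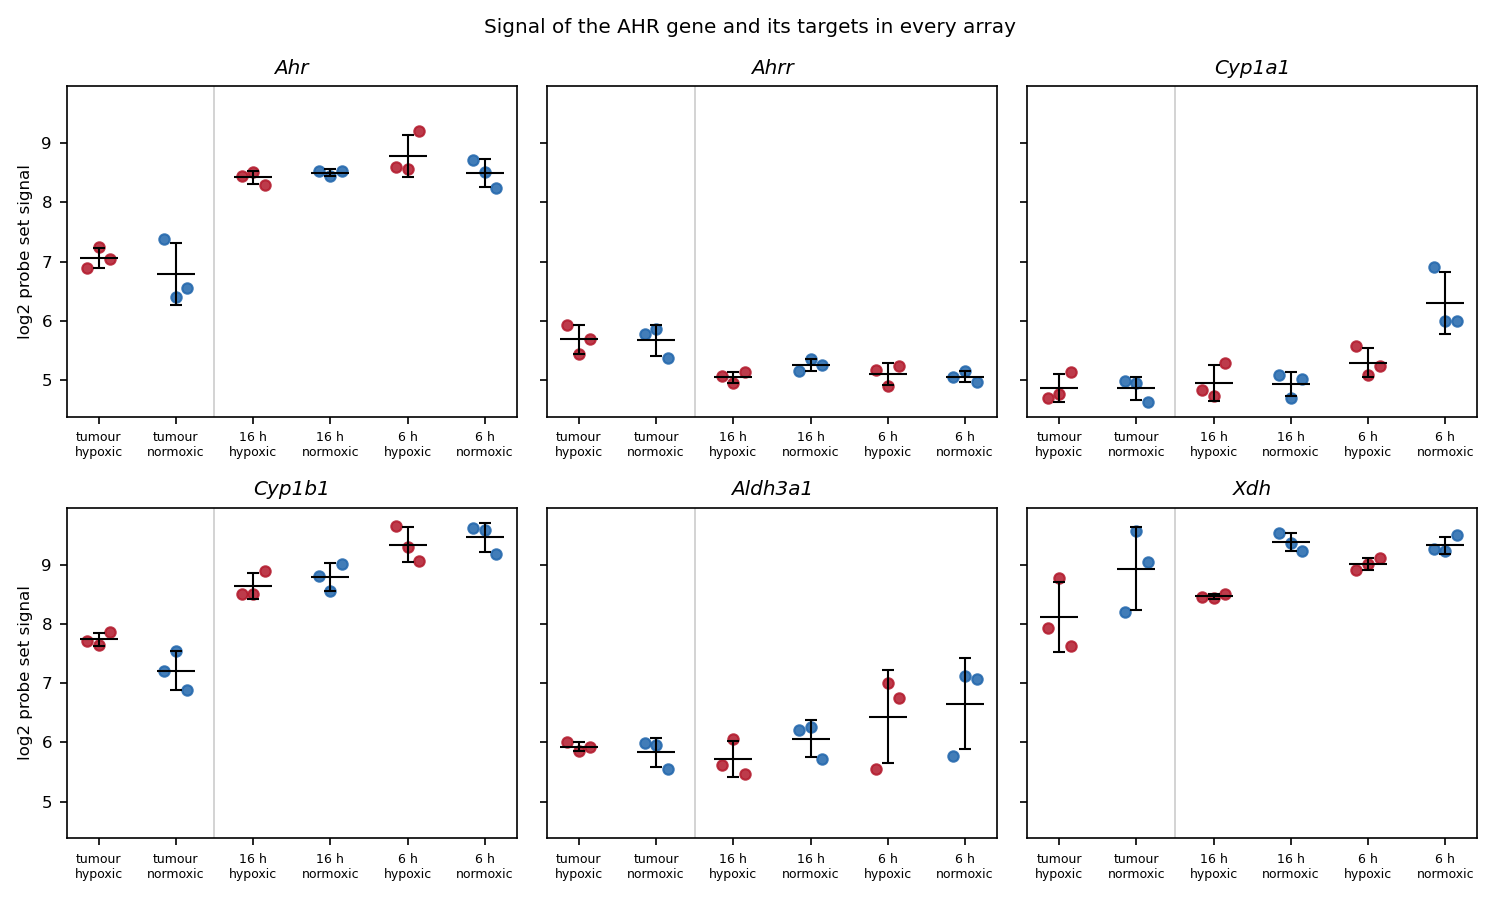
Log2 probe set signal of the 6 members (y axis, 1 panel per gene) in all 18 arrays by group (x axis), with red points for hypoxic and blue points for normoxic samples, and black lines for the mean and SD of 3 arrays. Ahr and Cyp1b1 lie lower in both tumour groups than in the cultures, Cyp1a1 stands highest in the normoxic 6 h cultures at 6.00 to 6.91, and Xdh is lower in the hypoxic 16 h cultures at 8.43 to 8.51 than in the normoxic ones at 9.23 to 9.54.

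The receptor gene was lower in tumour tissue than in culture and showed no passing difference with oxygen in the tumours. Ahr had log2 signals of 6.90, 7.25 and 7.05 in hypoxic regions (tumours 1, 2 and 3), against 7.39, 6.41 and 6.56 in their normoxic regions. The regions overlapped, and the direction differed between tumours, with a log2 difference of 0.28 ± 0.29 (SE, n = 3 tumours, limma adjusted p = 0.749) that was at -0.0029 without tumour 2 and at 0.17 without tumour 3. At 16 h Ahr was at 8.45, 8.52 and 8.30 in hypoxic cultures and at 8.53, 8.44 and 8.54 in normoxic cultures. At 6 h it was at 8.59, 8.57 and 9.20 in hypoxic cultures and at 8.72, 8.51 and 8.25 in normoxic cultures. The hypoxic array of culture 26 was the highest of all and culture 26 alone gave a difference near 1 log2 unit, at 0.95, against 0.05 and -0.12 in cultures 13 and 6.

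All 6 tumour arrays lay below all 12 culture arrays for Ahr, a separation whose share over all probe sets was not counted. Normoxic tumour regions averaged 6.79 ± 0.53 log2 units and normoxic cultures 8.50 ± 0.06 (16 h) and 8.49 ± 0.23 (6 h; SD, n = 3 each). The log2 difference was -1.71 ± 0.19 (SE, limma adjusted p = 3.83e-06), a 3.27-fold lower signal, and lay between -2.01 and -1.52 when any 1 of the 9 normoxic arrays was left out, with -1.60 without that of tumour 3. Its SE and p rest on a spread shared by all groups, which the less variable cultures help to set. This comparison called 64.3% of all probe sets (20.7% lower, 43.6% higher), and the brightest 25% of probe sets had a median of -0.62, so a call by itself says little about a member. Median centring moved the median over all probe sets from 0.24 to -0.07 and quantile normalization moved it to 0.06, and Ahr was at -2.02 and at -1.59 under them.

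Cyp1a1 encodes the cytochrome P450 that is the most used readout of receptor activity in rat tissue. Cyp1b1 encodes a related P450 that oxidizes oestrogens and polycyclic hydrocarbons, and Ahrr encodes the repressor that competes with the receptor for ARNT. Xdh encodes xanthine dehydrogenase, the molybdenum enzyme that makes urate at the end of purine breakdown, and dioxin raises its activity through the receptor in mouse. Promoter windows of 300 bases, 250 before and 50 after the gene start in the RefSeq annotation of the GRCr8 assembly, were held for 5 of the 7 genes, and Cyp1a1 and Aldh3a1 were without an entry. The windows of Ahrr, Cyp1b1 and Xdh are shown because these genes take different roles, the feedback repressor, the P450 that was lower in tumours and at 16 h, and the gene whose lower signal in hypoxic culture chose it. Capitals mark GCGTG, read on either strand (CACGC on the reverse), which is the core of the receptor element and also one form of the HIF core.
Ahrr: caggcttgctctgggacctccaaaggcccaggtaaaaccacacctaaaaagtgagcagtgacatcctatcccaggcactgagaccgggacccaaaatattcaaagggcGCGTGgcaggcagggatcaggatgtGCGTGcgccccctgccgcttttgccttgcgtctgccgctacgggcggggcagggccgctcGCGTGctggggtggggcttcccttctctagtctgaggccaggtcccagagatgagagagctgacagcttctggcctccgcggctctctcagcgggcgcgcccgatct
Cyp1b1: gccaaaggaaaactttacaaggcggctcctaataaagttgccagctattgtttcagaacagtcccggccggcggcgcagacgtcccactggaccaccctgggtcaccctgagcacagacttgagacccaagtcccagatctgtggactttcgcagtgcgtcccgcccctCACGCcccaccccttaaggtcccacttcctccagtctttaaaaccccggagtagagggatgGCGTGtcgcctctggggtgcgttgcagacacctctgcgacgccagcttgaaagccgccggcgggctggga
Xdh: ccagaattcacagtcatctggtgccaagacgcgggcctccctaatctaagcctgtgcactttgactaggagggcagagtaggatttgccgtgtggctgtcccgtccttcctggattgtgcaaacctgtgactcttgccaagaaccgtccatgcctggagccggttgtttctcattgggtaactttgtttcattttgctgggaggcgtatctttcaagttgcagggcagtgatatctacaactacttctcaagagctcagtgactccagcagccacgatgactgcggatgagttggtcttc
These lie at chr1:30821969-30822268 on the plus strand (Ahrr), chr6:21094315-21094614 on the plus strand (Cyp1b1) and chr6:27282069-27282368 on the plus strand (Xdh). GCGTG occurred 3 times in the Ahrr window, 2 times in Cyp1b1, 1 time in Tiparp and 0 times in Xdh and Ahr, and 29.7% of the 33469 promoter windows of the table hold it. ACGTG, the other form of the HIF core, was in none of the 5 windows and is held by 19.3% of all windows. The matches did not overlap each other, and a match is a run of letters, not a shown binding site.

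Cyp1a1 was highest in cells kept at normal oxygen for 6 h, at percentiles 48.4 to 64.0 of the array, against 30.4 to 39.2 in the hypoxic 6 h cultures. At 6 h it had log2 signals of 5.57, 5.09 and 5.24 in hypoxic cultures 6, 13 and 26, against 6.91, 6.00 and 6.00 in normoxic cultures of the same numbers. Every hypoxic value was below every normoxic one, and the difference was -1.004 ± 0.30 (SD over 3 pairs), a 2.01-fold lower signal and the fourth lowest among all probe sets. Without the normoxic array of culture 6 it was -0.70. These are values that chose the set.

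At 16 h the oxygen groups overlapped for Cyp1a1. Its log2 signals were 4.83, 4.73 and 5.29 in hypoxic cultures 22, 28 and 29 and 5.09, 4.70 and 5.01 in normoxic cultures, with a difference of 0.02 ± 0.27 (SD over 3 pairs). The response at 16 h minus that at 6 h was 1.02 log2 units, which was not tested because it holds the contrast that chose the gene. Normoxic cultures were themselves lower at 16 h than at 6 h, with means of 4.94 ± 0.21 and 6.30 ± 0.53 (SD, n = 3 each) and no overlap. That difference was -1.37 ± 0.23 (SE), the ninth lowest of all probe sets, and -1.06 without the normoxic 6 h array of culture 6. It is given without a p because the normoxic 6 h arrays also entered the choice of the gene. In hypoxic cultures the 16 h mean was 4.95 and the 6 h mean 5.30, and those groups overlapped.

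In tumours Cyp1a1 was at 4.71, 4.77 and 5.14 log2 units in hypoxic regions and at 4.99, 4.96 and 4.64 in normoxic regions. Both regions lay between percentiles 16.1 and 20.7 of the array, and RMA values carry no detection call. Hypoxic minus normoxic was 0.01 ± 0.23 (SE, limma adjusted p = 0.992), at -0.24 without tumour 3, and it turned to -0.12 after quantile normalization and to -0.04 after median centring. Normoxic tumour regions lay -0.07 from the normoxic 16 h cultures and -1.44 from the normoxic 6 h cultures, so the value against both, -0.76 (-0.64 without the normoxic array of tumour 3), depends on the culture time. In the order of group means, no 2 neighbours below the normoxic 6 h cultures were separated.

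Cyp1b1 was one of the genes lower at 16 h than at 6 h in normoxic culture. Its log2 signals were 8.80, 8.55 and 9.02 in normoxic 16 h cultures, against 9.63, 9.59 and 9.17 in normoxic 6 h cultures. The groups did not overlap, as for 13.6% of all probe sets in that direction, and the gene fell by 0.67 ± 0.18 on the log2 scale (SE, with 3 arrays on each side, limma adjusted p = 0.0461), a 1.59-fold lower signal. It was the single one of the 4 members tested here to pass, in a comparison that called 4.86% of all probe sets (2.45% lower). The call was lost without either of the normoxic 16 h arrays of cultures 22 and 28 (adjusted p = 0.137 and 0.170) or of the normoxic 6 h arrays of cultures 6 and 13 (0.138 and 0.125), after quantile normalization (0.0865) and in a fit of all 18 arrays (0.146). The 2 times carry different sample codes, and time cannot be told apart from how each set was run.

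The hypoxic cultures held the same order for Cyp1b1, at 8.51, 8.51 and 8.90 at 16 h against 9.65, 9.30 and 9.06 at 6 h, with no overlap (-0.70). Ahr (-0.36) and Xdh (-0.54) were also lower without overlap there, while Ahrr, Cyp1a1 and Aldh3a1 overlapped. The share of all probe sets without overlap was not counted for the hypoxic cultures, and their time difference was not tested. Between oxygen levels the gene differed little in culture, at -0.15 ± 0.13 at 16 h and -0.12 ± 0.16 at 6 h (SD over 3 pairs), lower in 5 of the 6 pairs. The oxygen groups overlapped at both times.

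In tumours Cyp1b1 was at 7.71, 7.65 and 7.86 log2 units in hypoxic regions, against 7.21, 7.54 and 6.89 in normoxic regions. Hypoxic regions were higher in all 3 tumours, as for 22.9% of all probe sets, and the groups did not overlap, as for 11.8% in that direction. The difference of 0.53 ± 0.23 (SE, n = 3 tumours) did not pass (limma adjusted p = 0.570), and was 0.30 without tumour 3 and 0.74 without tumour 2. Every tumour array was below every culture array, and normoxic tumour regions lay -1.91 ± 0.17 (SE) from normoxic cultures (limma adjusted p = 4.10e-07), a 3.76-fold lower signal. It was -1.57 against the 16 h and -2.25 against the 6 h cultures, and -1.75 without the normoxic array of tumour 3. In the order of group means, cultures at 6 h came first, then cultures at 16 h, hypoxic tumour regions and normoxic tumour regions, and only the 2 oxygen groups of each culture time overlapped as neighbours.

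Ahrr had log2 signals of 5.94, 5.44 and 5.70 in hypoxic regions of tumours 1, 2 and 3 and of 5.78, 5.87 and 5.38 in normoxic regions. The regions overlapped at 0.02 ± 0.22 (SE, limma adjusted p = 0.980), a value of -0.08 after quantile normalization, -0.03 after median centring and -0.13 without tumour 3. In culture it was at 5.06, 4.95 and 5.14 in hypoxic and 5.15, 5.35 and 5.26 in normoxic 16 h arrays, and at 5.17, 4.90 and 5.25 in hypoxic and 5.06, 5.15 and 4.98 in normoxic 6 h arrays. Hypoxic cultures were lower without overlap at 16 h (-0.20 ± 0.17, SD over 3 pairs) and overlapped at 6 h (0.04 ± 0.27). Between the 2 times, normoxic cultures differed by 0.19 ± 0.11 (SE, limma adjusted p = 0.340). Normoxic tumour regions were 0.52 ± 0.13 higher than normoxic cultures (SE, limma adjusted p = 0.00285), a value of 0.66 without the normoxic array of tumour 3 and a call lost after quantile normalization (0.15, adjusted p = 0.349) and median centring (0.20, adjusted p = 0.171).

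Aldh3a1 encodes an aldehyde dehydrogenase that is a classic dioxin-induced gene of rat liver. In the 6 h cultures it differed between culture numbers more than between oxygen levels, with SDs of 0.78 over hypoxic and 0.76 over normoxic arrays. In the 16 h cultures those SDs were 0.31 and 0.31, near the size of the oxygen difference given below. At 6 h its log2 signals were 5.55, 7.01 and 6.76 in hypoxic cultures 6, 13 and 26, against 5.77, 7.12 and 7.07 in the normoxic ones, so culture 6 was low at both oxygen levels. At 16 h they were 5.62, 6.07 and 5.47 in hypoxic cultures 22, 28 and 29, against 6.21, 6.27 and 5.71 in the normoxic ones. Within pairs taken by culture number, the hypoxic culture was lower in 6 of 6. The means were -0.34 ± 0.21 at 16 h and -0.22 ± 0.10 at 6 h (SD over 3 pairs), although the groups overlapped at both times. Without regard to pairs, leaving out the hypoxic array of culture 6 turned the 6 h difference to 0.23. Hypoxic cultures were lower in all 3 pairs for 19.9% of all probe sets at 16 h and for 11.4% at 6 h.

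In tumours Aldh3a1 was at 6.00, 5.85 and 5.93 log2 units in hypoxic regions and at 5.99, 5.95 and 5.56 in normoxic regions, which overlapped. The difference was 0.09 ± 0.20 (SE, limma adjusted p = 0.867) and -0.04 without tumour 3. Normoxic cultures at 16 h minus 6 h were at -0.59 ± 0.38 (SE, adjusted p = 0.386). Normoxic tumour regions lay -0.53 ± 0.31 from normoxic cultures without passing (adjusted p = 0.143), at -0.39 without the normoxic array of tumour 3, and passed without the normoxic 6 h array of culture 6 (-0.75, adjusted p = 0.0235), after quantile normalization (-0.83, adjusted p = 0.0247) and after median centring (-0.84, adjusted p = 0.0334).

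Xdh was lower in the hypoxic sample of each of the 6 culture pairs, a direction that the choice of the gene fixed. At 16 h its log2 signals were 8.46, 8.43 and 8.51 in hypoxic cultures 22, 28 and 29, against 9.54, 9.37 and 9.23 in normoxic cultures. The groups were far apart, at -0.92 ± 0.18 (SD over 3 pairs), a 1.89-fold lower signal and number 16 from the lowest among all probe sets. At 6 h they were 8.91, 9.02 and 9.11 in hypoxic cultures 6, 13 and 26, against 9.26, 9.23 and 9.49 in normoxic cultures. The 6 h groups did not overlap either, at -0.32 ± 0.09. Over both times 2 of the 6 members were lower without overlap at 16 h (Xdh and Ahrr) and 2 at 6 h (Xdh and Cyp1a1), where 8.13% and 3.98% of all probe sets were, and nothing is read from counts of a contrast that chose the set.

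The tumours took no part in that choice. In tumours 1, 2 and 3 the log2 signal of Xdh was 7.93, 8.78 and 7.63 in hypoxic regions, against 8.20, 9.57 and 9.04 in their normoxic regions. Each tumour was lower in its hypoxic region, by -0.26, -0.79 and -1.41, although the groups overlapped because the tumours differed in level. The hypoxic region was lower in all 3 tumours for 11% of all probe sets. The difference of -0.82 ± 0.26 (SE, n = 3 tumours), a 1.77-fold lower signal, had an unadjusted limma p of 0.0184 and did not pass (adjusted p = 0.435), and it was -0.53 without tumour 3. In one model over the 18 arrays, blocked by pair, which lets the less variable cultures set part of the spread, it passed (adjusted p = 0.0337).

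Markers of other cell types were measured in the same regions. The 12 macrophage markers lay at -0.34, -0.16 and -1.27 in tumours 1, 2 and 3 and the 10 T and NK cell markers at -0.63, -0.26 and -1.76 (mean hypoxic minus normoxic log2 difference), and tumour 3 was the lowest for both and for Xdh, while tumours 1 and 2 were in the opposite order for Xdh and for both lists. The 7 endothelial markers lay at 0.05, -0.02 and -0.10, and the 9 pericyte and fibroblast markers at -0.15, 0.11 and -0.41. Their part in the Xdh difference was not tested. In the 16 h cultures, where Xdh differed by -0.92, the macrophage markers averaged 5.51 to 5.59 in hypoxic and 5.49 to 5.57 in normoxic arrays. The T and NK cell markers averaged 5.09 to 5.16 in hypoxic and 5.19 to 5.40 in normoxic arrays there, lower in 10 of 10 genes, with differences of -0.27, -0.24 and -0.02 in cultures 22, 28 and 29, and their part in the Xdh difference was not tested. Normoxic tumour regions and normoxic cultures had Xdh means of 8.94 and 9.35, a difference of -0.42 that was 0.24 after quantile normalization, -0.05 without the normoxic array of tumour 1, -0.74 without that of tumour 2 and -0.47 without that of tumour 3.

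**Figure D2:**
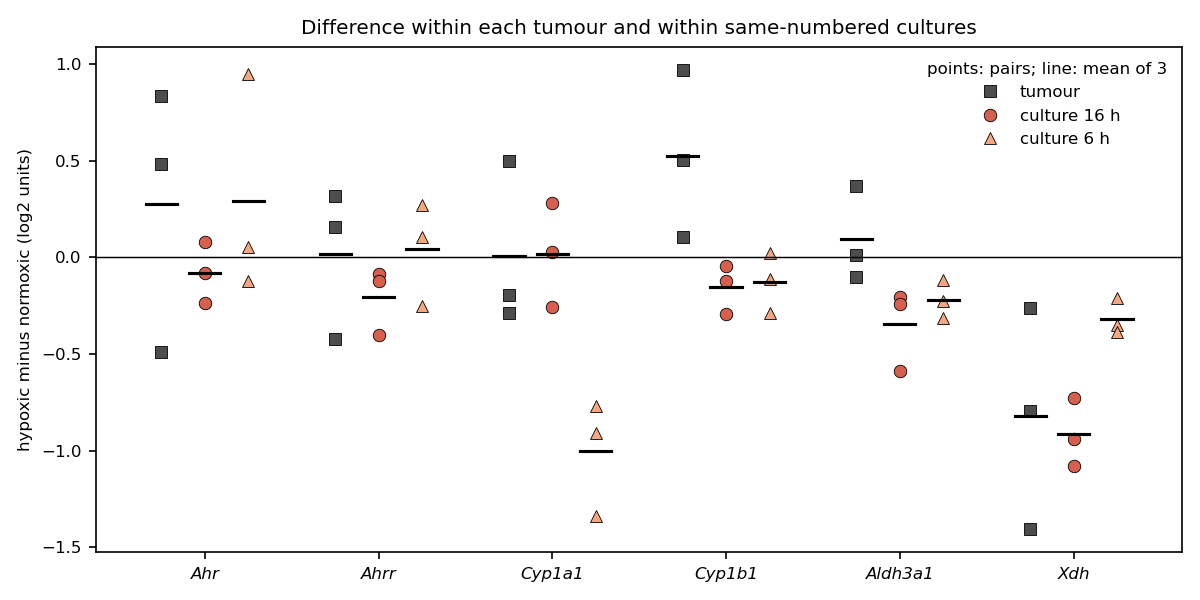
Hypoxic minus normoxic log2 difference (y axis) of the 6 members (x axis) in each of 3 tumours (squares), 3 culture pairs at 16 h (circles) and 3 at 6 h (triangles), with a line at each mean of 3. The 3 tumour points of Xdh and all culture points of Xdh and Aldh3a1 lie below 0, Cyp1a1 is below 0 in all pairs at 6 h with values from -1.34 to -0.77 and on both sides of 0 elsewhere, and Cyp1b1 is above 0 in the 3 tumours.

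Over the 6 members the tumour comparison gave 0 calls by limma at adjusted p = 0.05, as it did for all probe sets (percent called 0), and 1 of 6 at an unadjusted p under 0.05 (Xdh), against 9.12% of all probe sets. In normoxic tumour regions against normoxic cultures, 3 of the 4 members tested passed, Ahr and Cyp1b1 lower and Ahrr higher. Of all probe sets, 64.3% were called there, 20.7% lower and 43.6% higher. Cyp1a1 and Xdh were left out of that count because their normoxic culture values entered their choice.

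Genes with the profile most like a member were taken over the 6 group means, as those with the smallest root mean square difference after each profile was centred on its own mean. For Ahr these were Rin2, Tfg and Camsap2, at 0.06, 0.08 and 0.09 log2 units. For Cyp1b1 they were Leo1, Trim32 and Mrpl49, at 0.08, 0.09 and 0.09. Xdh lay nearest to Lmnb1, Ppic and Ifit3, at 0.11, 0.11 and 0.12. Cyp1a1 had no profile as close, with Pabir1, Srpx2 and Setd6 at 0.15, 0.19 and 0.23. Ahrr and Aldh3a1 spanned less than 1 log2 unit over the group means (0.64 and 0.94) and were not matched.

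**Figure D3:**
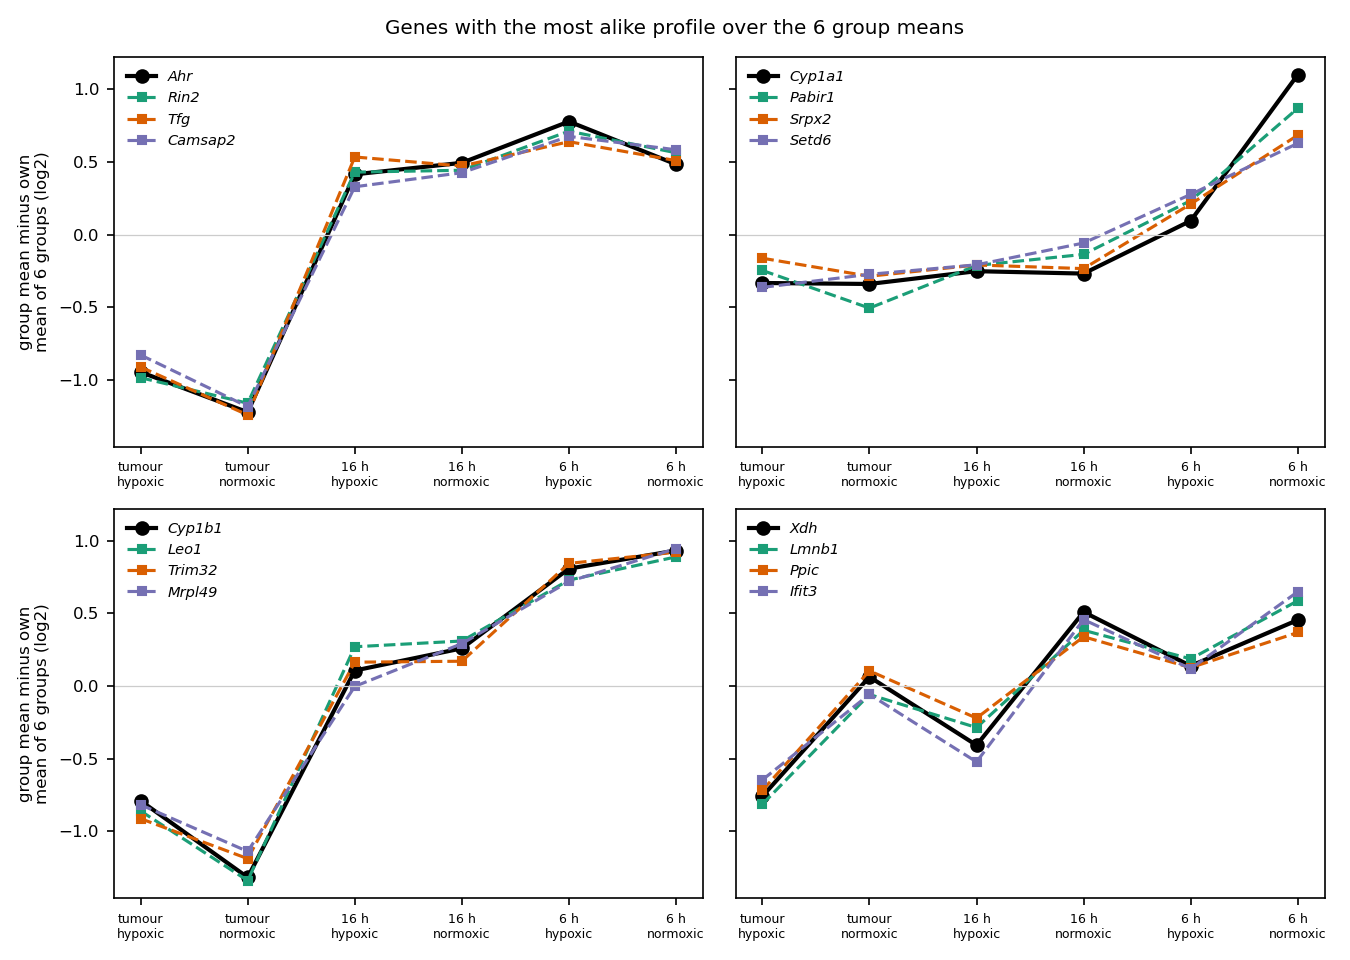
Group means minus their own mean over 6 groups (y axis, log2 units) by group (x axis) for Ahr, Cyp1a1, Cyp1b1 and Xdh (black) and the 3 genes with the most alike profile (coloured, dashed). The lines of Ahr and Cyp1b1 run almost together with their neighbours, and Cyp1a1 rises above its own neighbours in the normoxic 6 h cultures.

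The partner subunits and further targets were read from 8 lists holding 93 measured genes, chosen from textbook knowledge with earlier results of these arrays known. Between oxygen levels few of them passed. In tumours 0 of 93 passed by limma, as without tumour 3, with 17 at an unadjusted p under 0.05 beside 9.12% of all probe sets, and the median difference was 0.0007 log2 units against 0.10 over all probe sets. In cultures 2 rose at 16 h (2.15%, against 0.705% of all probe sets) and 1 rose at 6 h (1.08%, against 0.19%), and 0 fell at either time.

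Arnt, the shared partner, averaged 8.12 ± 0.22 log2 units in hypoxic and 7.88 ± 0.42 in normoxic tumour regions (SD, n = 3 each), a difference of 0.24 ± 0.23 (SE, limma adjusted p = 0.726). Its hypoxic and normoxic cultures averaged 7.99 and 7.95 (16 h) or 7.71 and 7.70 (6 h), and neither difference passed. Normoxic tumour regions lay 0.05 ± 0.16 from normoxic cultures for Arnt (SE, limma adjusted p = 0.783). Hif1a, the oxygen-regulated subunit that also pairs with ARNT, averaged 8.27 in hypoxic and 7.88 in normoxic tumour regions, without passing (limma adjusted p = 0.670). In normoxic tumour regions Hif1a was lower than in normoxic cultures by -1.78 ± 0.19 (SE, limma adjusted p = 2.05e-06), so Ahr and Hif1a were both lower in tumours while Arnt gave no call. Of the 13 measured genes of the receptor complex and its partners, 2 were higher and 7 lower in that comparison, beside 43.6% and 20.7% of all probe sets. Their median of -0.62 equals that of the brightest 25% of probe sets, and the list averaged 7.86 to 8.32 log2 units over the 6 tumour arrays and 8.55 to 8.75 over the 12 culture arrays. Without tumour 3 Arnt and Hif1a lay at 0.28 and 0.60 between tumour regions and, without its normoxic array, at 0.14 and -2.07 from normoxic cultures. The lower ones included the chaperone genes Hsp90aa1 (-1.44 ± 0.23) and Ptges3 (-2.21 ± 0.33) and the ubiquitin ligase gene Stub1 (-1.32 ± 0.11).

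Nqo1, a quinone reductase that both the receptor and NRF2 induce, had the smallest p between tissue and culture among the 13 measured further targets. Its log2 signals were 5.56, 5.97 and 6.21 in hypoxic and 5.98, 6.15 and 6.20 in normoxic tumour regions. In cultures they ran between 11.1 and 11.7 in hypoxic and 11.03 and 11.2 in normoxic 16 h arrays, and between 10.8 and 11.5 in hypoxic and 11.4 and 11.6 in normoxic 6 h arrays. Normoxic tumour regions lay -5.19 ± 0.17 from normoxic cultures (SE, limma adjusted p = 7.25e-12), and -5.23 without the array of tumour 3. Oxygen gave no call for Nqo1, at -0.20 ± 0.19 in tumours (-0.30 without tumour 3), 0.32 ± 0.17 at 16 h and -0.28 ± 0.17 at 6 h (SE). Nfe2l2, which encodes NRF2, was also lower in normoxic tumour regions than in normoxic cultures, by -1.43 ± 0.18 (limma adjusted p = 1.08e-05). In all, 4 of the 13 further targets were higher and 5 lower in tumours, beside 43.6% and 20.7% of all probe sets, among them Cyp2s1 at 0.60 ± 0.12 and Ereg, an EGF receptor ligand, at -1.74 ± 0.21.

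**Figure D4:**
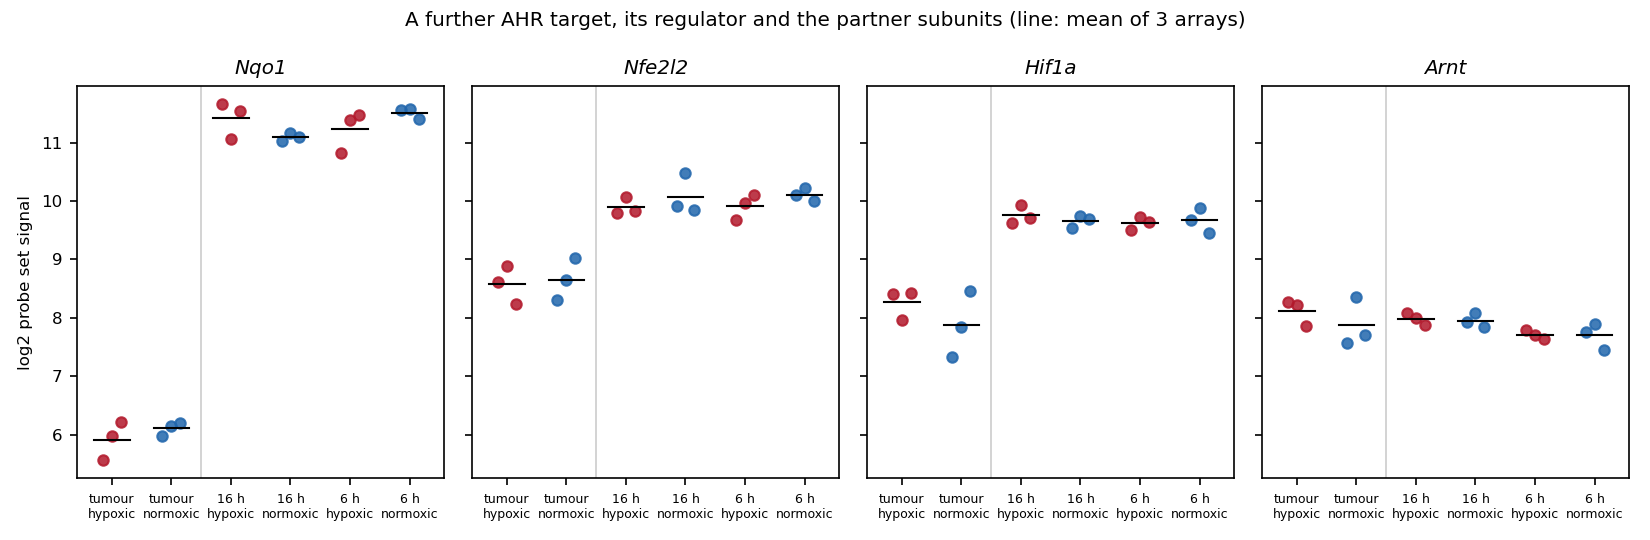
Log2 probe set signal (y axis) of Nqo1, Nfe2l2, Hif1a and Arnt in all 18 arrays by group (x axis), with red points for hypoxic samples, blue points for normoxic samples and a line at each mean of 3. Nqo1 lies at 5.56 to 6.21 in tumour arrays and at 10.8 to 11.7 in cultures, Nfe2l2 and Hif1a are lower in tumours by less, and the Arnt points of tumours and cultures overlap.

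The list genes that rose with hypoxia in culture belong to haem breakdown and to the enzyme family nearest to Xdh. Hmox1 encodes haem oxygenase, which degrades the haem that P450 enzymes carry. At 16 h its log2 signals were 10.6, 10.4 and 11.1 in hypoxic and 9.23, 9.50 and 9.81 in normoxic cultures, and at 6 h they were 10.4, 10.3 and 10.7 in hypoxic and 9.33, 9.06 and 9.31 in normoxic cultures. The rise was 1.19 ± 0.18 after 16 h (SE, limma adjusted p = 0.00601) and 1.24 ± 0.18 after 6 h (adjusted p = 0.00881), and the 6 h call was lost without the normoxic array of culture 13 or the hypoxic array of culture 26. In tumours Hmox1 was at 10.8, 10.1 and 9.58 in hypoxic and 6.49, 8.93 and 7.30 in normoxic regions, higher in all 3 and without overlap, at 2.58 ± 0.56 (SE, limma adjusted p = 0.281) and at 2.72 without tumour 3.

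Aox1 encodes aldehyde oxidase, a molybdenum enzyme of the same family as xanthine dehydrogenase. At 16 h it rose by 0.88 ± 0.18 (SE, limma adjusted p = 0.0425), with 8.95, 9.02 and 8.53 log2 units in hypoxic and 7.84, 8.38 and 7.65 in normoxic cultures, while Xdh was lower in the same arrays. The call was lost without the normoxic arrays of cultures 22 or 29 or the hypoxic arrays of cultures 22 or 28, left out one at a time, and after quantile normalization. At 6 h it was at 0.42 ± 0.18 (limma adjusted p = 0.971). In normoxic tumour regions Aox1 lay -2.32 ± 0.17 from normoxic cultures (limma adjusted p = 9.03e-08; -2.18 without the array of tumour 3), with a like direction in Gphn (-2.21 ± 0.21) and Mocs2 (-1.92 ± 0.33), which make the molybdenum cofactor. Over the 12 genes of that list, 5 were higher and 5 lower there, beside 43.6% and 20.7% of all probe sets.

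Normoxic cultures at 16 h were lower than at 6 h for 4 of the 93 list genes (4.3%, against 4.86% of all probe sets), and higher for 0. These were Aldh2, the mitochondrial acetaldehyde dehydrogenase (-0.78 ± 0.13, limma adjusted p = 0.00553), Alad of haem synthesis (-0.51 ± 0.12, adjusted p = 0.0309), Ada, adenosine deaminase (-0.49 ± 0.12, adjusted p = 0.0368) and Por, the reductase that passes electrons to P450 enzymes (-0.44 ± 0.12, adjusted p = 0.0487). Aldh2 passed whichever of the 6 arrays was left out, Ada and Por lost the call with any of them left out, and Alad kept it only without the normoxic 16 h array of culture 29 or the normoxic 6 h array of culture 6. Ada and Por also lost it after quantile normalization, Por with a trended and robust variance, and all 4 in the model over 18 arrays.

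Genes of the tryptophan and purine routes were mixed in tumours. Of 8 measured genes that turn tryptophan into kynurenine and beyond, 6 were higher and 0 lower in normoxic tumour regions than in normoxic cultures. Of all probe sets, 43.6% were higher and 20.7% lower. Kmo (1.28 ± 0.14), Haao (0.59 ± 0.10), Qprt (0.70 ± 0.17) and Kynu (0.37 ± 0.10, all SE) had the smallest p. These genes act on kynurenine or after it, so the count for the list is no measure of ligand supply. The list's median was 0.40, and the dimmest 25% of probe sets and the 25% above them had medians of 0.26 and 0.47. The T and NK cell and macrophage markers were higher in the same comparison, in 10 of 10 and 12 of 12 genes, and their part in it was not tested. Of 13 measured genes of purine breakdown and salvage, 2 were higher and 3 lower, beside 43.6% and 20.7% of all probe sets, with Pnp, which makes the hypoxanthine and guanine that precede the Xdh step, at 1.08 ± 0.22 and the salvage genes Hprt1 and Adk at -2.65 ± 0.17 and -2.56 ± 0.28. Within tumours, Pnp lay at -1.23 ± 0.29, Hprt1 at -0.85 ± 0.25 and Kmo at -0.77 ± 0.23 in hypoxic minus normoxic regions, and none passed (limma adjusted p = 0.311, 0.416 and 0.420). Without tumour 3 they lay at -0.96, -1.17 and -0.69, and in tumours against cultures, without its normoxic array, Pnp lay at 0.89, Hprt1 at -2.59 and Kmo at 1.15. Fosl1, a transcription factor gene that the receptor can induce, had the smallest p of all list genes between hypoxic and normoxic tumour regions, at 1.21 ± 0.18 (limma adjusted p = 0.180) and at 1.21 without tumour 3.

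The remaining lists held calls mainly between tissue and culture. In normoxic tumour regions against normoxic cultures, 9 of 13 aldehyde dehydrogenase genes were higher and 4 lower, 2 of 12 genes of haem synthesis and P450 reduction were higher and 8 lower, and 1 of 9 genes of the PARP family, to which Tiparp belongs, was higher and 6 lower, beside 43.6% and 20.7% of all probe sets. In all, 31 of the 93 list genes were higher and 38 lower (74.2%, against 64.3% of all probe sets), and 29 and 36 without the normoxic array of tumour 3.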

How the data were processed

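The deposited values were log2 probe set signals of 18 Affymetrix rat gene arrays that the authors normalized by RMA. The submitters' processing notes name Partek 6.5b. They ran from 2.16 to 13.8, and they were used as deposited. Of 27363 probe sets, 15097 carried 1 gene symbol, 323 several and 11943 were not listed in the annotation used, and names come from the first kind only. The sources used here give no genome build for the array files, and promoter windows are from RefSeq on GRCr8.

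Every fit was run over all probe sets with limma 3.58.1 in R 4.3.3 (lmFit, eBayes), with Benjamini-Hochberg adjustment over all 27363 and a threshold of 0.05. Tumour regions were fitted on 6 arrays, blocked by tumour, and cultures on the 12 culture arrays in 4 groups. Tumour against culture was fitted on all 18 arrays in 6 groups without a block for tumour, so the hypoxic arrays also set the spread. The 12 culture arrays set part of it too, so p can be too small for genes that vary more between tumours. It compared the normoxic tumour group with the mean of the 16 h and 6 h normoxic culture groups. The code was tested on simulated data. Members, lists and tests were chosen with earlier results of these data known. Hypoxic minus normoxic values of members in culture chose the set and carry no p, and for that reason Cyp1a1 and Xdh carry none in the other comparisons that use normoxic cultures, for the 16 h against 6 h comparison a choice made after the files were seen.

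Genes named beside the members were Arnt, Hif1a, Nqo1, Nfe2l2, list genes past the threshold (at most 4 per list and comparison, by smallest p, or the 2 with the smallest p where none passed) and the 3 genes with the most alike profile. Marker lists of 7 other cell types were also measured. Culture numbers were taken as pairs because the deviations of same-numbered cultures correlated above 0.1 in every pair, with r of 0.13, 0.188 and 0.307 (16 h) or 0.125, 0.193 and 0.192 (6 h). Tumour regions are paired by tumour in the labels, and their r was 0.128, 0.036 and 0.273, so a true pair can lie below 0.1. Differently numbered cultures were not compared, so these r cannot show pairing. Values over culture pairs rest on the numbers being pairs. Alternatives were quantile normalization, median centring, a trended and robust variance, leaving out the dimmest 25% of probe sets, other sample sets, the block, and each array or tumour left out.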

Additional observations from a re-analysis of the deposited data

Results flagged for a closer look

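Cyp1b1 ran in opposite directions with oxygen in the tumours and in the 16 h cultures. Hypoxic minus normoxic was positive in all 3 tumours, with a mean of 0.53 log2 units, and negative in all 3 culture pairs at 16 h, with a mean of -0.15. Of all probe sets, 22.9% were higher in all 3 tumours and 19.9% lower in all 3 pairs at 16 h. The 16 h oxygen groups overlapped for Cyp1b1, and the culture value ran from -0.28 to -0.04 with 1 array left out. The difference between the 2 settings was not tested. The tumour value did not pass (limma adjusted p = 0.570), and the culture value carries no test.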

How the results depend on the processing

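The 3 arrays a group and 2 ng of amplified RNA limit what could be called, and Cyp1a1 in tumours lies among the dimmer probe sets. In the tumour comparison, one model over the 18 arrays with a replicate block for pairs called 1 member (Xdh) and 12 list genes against 0 and 0, and 1408 probe sets against 0. Leaving out 1 tumour gave 0 members in each case, 0 to 3 list genes and 0 to 563 probe sets, the highest without tumour 1. Tumour values that changed sign were Ahrr (-0.081 after quantile normalization, -0.028 after median centring, -0.13 to 0.24 with 1 tumour left out), Cyp1a1 (-0.12, -0.040 and -0.24 to 0.15), Ahr (-0.0029 to 0.66) and Aldh3a1 (-0.043 to 0.19). For normoxic 16 h against 6 h cultures, 0 members passed after quantile normalization and 0 in the fit of all 18 arrays, against 1, and 8 list genes passed after median centring and 0 in the fit of all 18 arrays, against 4. With 1 array left out, 0 to 1 members, 1 to 2 list genes and 363 to 907 probe sets passed, against 1330, and Cyp1a1 lay at -1.52 to -1.06. Over the other settings 137 to 1706 probe sets passed. Ahr there was -0.079 after median centring and -0.11 to 0.12 with 1 array left out. For tumours against cultures, 3 to 4 members, 59 to 69 list genes and 14352 to 18372 probe sets passed with 1 array left out, and 10489 to 17746 under the other settings, against 17601. For hypoxic against normoxic cultures at 16 h, 5 list genes passed after median centring and 4 with the culture number as a replicate block, against 2. With 1 array left out 1 to 2 list genes and 74 to 171 probe sets passed, against 193, and Xdh lay at -0.99 to -0.84. At 6 h, 0 to 1 list genes and 27 to 50 probe sets passed with 1 array left out, against 52, and Cyp1a1 lay at -1.16 to -0.70. The block changed no other call of a list gene. No paired analysis was possible for 16 h against 6 h cultures or for tumours against cultures because the groups compared share fewer than 2 sample numbers (the code of tumour 2 and of 6 h culture 26 holds the same number, 26). The causes of these changes were not tested. Each member has 1 probe set, so no other probe set could be tried, and no member's mean over the 18 arrays fell among the dimmest 25%. Cyp1a1 was at percentile 27.6 by that mean and at 16.1 to 20.7 in the tumour arrays.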

Other observations

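Cyp1a1 and Aldh3a1, which the receptor induces together in rat liver, did not share their high arrays in the 6 h cultures. Culture 6 had the highest Cyp1a1 signal of its group at both oxygen levels, at 5.57 log2 units in the hypoxic and 6.91 in the normoxic array. The same culture had the lowest Aldh3a1 signal, at 5.55 in the hypoxic array and 5.77 in the normoxic one, where cultures 13 and 26 had 7.01 and 6.76 in hypoxic arrays and 7.12 and 7.07 in normoxic arrays. These are single values of 3 cultures and were not tested.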
